A study of Mus musculus with 9 samples.

Results

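In mouse granulosa cells, 305 genomic loci carried glucocorticoid receptor (GR) binding before an ovulatory stimulus and a stronger GR signal 6 h after it. They were chosen by a rule on the signal itself. Wherever peaks of the 4 GR libraries shared at least 1 bp (chromosomes 1 to 19 and X), they were joined, which gave 18570 loci, of which 5012 had a peak in all 4 libraries and are called shared. In each library the highest fold enrichment in a locus was divided by that library's median over the shared loci and taken to log2. M is the mean of the 6 h values minus the mean of the 0 h values, and the strengthened loci are those with M of 0.5 or more, which is 6.09% of the shared loci. The 4707 other shared loci comprise 248 weakened loci, with M of -0.5 or less, and 4459 stable loci. A locus too weak at 0 h to pass the peak limit is not among the strengthened ones by construction. A further 2805 loci had peaks in both libraries of the 6 h group and in none of the 0 h group.

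Chromatin immunoprecipitation followed by sequencing (ChIP-seq) recovers the DNA that a protein occupies, here with the anti-GR antibody sc-8992. The 6 h group consisted of 2 GR libraries from wildtype CBA x C57BL/6 F1 mice, aged 21 days, that received 5 IU of equine chorionic gonadotropin (eCG, also called PMSG), were injected 44 h later with 5 IU of human chorionic gonadotropin (hCG) and were killed 6 h after hCG. The 0 h group consisted of 2 GR libraries from mice of the same genotype, strain and age that were killed 44 h after the same eCG dose. A single H3K27ac library, of an acetylated histone residue that marks active promoters and enhancers, came from the 0 h condition. eCG drives follicle growth in place of follicle-stimulating hormone (FSH), and hCG mimics the surge of luteinising hormone (LH). The files used here hold no GR library for the 6 h time without hCG, so hCG, the injection and the later time after eCG cannot be told apart. Replicates are only numbered, so spreads between libraries may be technical. The remaining 4 samples were not analysed here.

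GR is a steroid receptor of nearly every cell type. When it binds corticosterone, the main glucocorticoid of mice, it enters the nucleus and binds DNA as a dimer on paired hexamers, or joins sites held by other factors such as AP-1, the dimers of Fos and Jun proteins. Granulosa cells surround the oocyte, make oestradiol before the LH surge, and turn after it into luteal cells that make progesterone. GR often occupies chromatin that is already open, and its target genes include feedback inhibitors of inflammation, growth signalling and the hormone response itself.

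Some strengthened loci overlapped promoters whose sequence is known. Sequence was given for promoter windows, from 250 bases before to 50 bases after a RefSeq start site (assembly GRCm38.p6, the coordinates of mm10), and not for other positions. Of the 305 strengthened loci, 92 overlapped such a window and 39 had their strongest 6 h summit in it. The promoters of F3 (tissue factor, which starts blood clotting), F2r (a receptor for thrombin) and Zyx (zyxin, a protein of cell adhesion sites) are shown because they hold AP-1 letters. The promoter of Cxcr4, a chemokine receptor, is shown for a GR hexamer. A promoter of Per1, a clock repressor and a textbook glucocorticoid target, is shown because it holds neither. All 5 were picked after their values were seen. The 250 bases before the start site are given 5′ to 3′ on the gene's strand, and capitals mark AP-1 sites (TGANTCA), RUNX sites (TGTGGT) and GR hexamers (AGAACA) on either strand.
F3, chr3:121723287-121723536, strand plus: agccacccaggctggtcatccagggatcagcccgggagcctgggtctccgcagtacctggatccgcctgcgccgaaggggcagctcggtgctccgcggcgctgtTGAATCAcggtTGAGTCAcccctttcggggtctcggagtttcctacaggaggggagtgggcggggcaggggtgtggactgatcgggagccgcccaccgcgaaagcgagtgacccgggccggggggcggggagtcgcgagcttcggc
F2r, chr13:95618467-95618716, strand minus: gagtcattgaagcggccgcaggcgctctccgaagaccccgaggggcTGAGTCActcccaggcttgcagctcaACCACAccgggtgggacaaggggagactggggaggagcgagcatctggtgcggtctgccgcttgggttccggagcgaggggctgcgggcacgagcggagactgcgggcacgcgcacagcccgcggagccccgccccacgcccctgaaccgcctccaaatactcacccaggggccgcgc
Zyx, chr6:42349578-42349827, strand plus: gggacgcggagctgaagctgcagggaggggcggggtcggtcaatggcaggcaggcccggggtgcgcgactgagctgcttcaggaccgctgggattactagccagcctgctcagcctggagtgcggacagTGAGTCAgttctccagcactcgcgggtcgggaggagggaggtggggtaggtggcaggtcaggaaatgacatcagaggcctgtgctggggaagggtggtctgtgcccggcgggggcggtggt
Cxcr4, chr1:128592300-128592549, strand minus: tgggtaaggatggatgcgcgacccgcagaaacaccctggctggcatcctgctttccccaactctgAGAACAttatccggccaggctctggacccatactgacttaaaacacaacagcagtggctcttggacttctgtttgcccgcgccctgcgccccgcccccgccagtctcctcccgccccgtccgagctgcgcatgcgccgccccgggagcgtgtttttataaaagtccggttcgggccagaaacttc
Per1, chr11:69098699-69098948, strand plus: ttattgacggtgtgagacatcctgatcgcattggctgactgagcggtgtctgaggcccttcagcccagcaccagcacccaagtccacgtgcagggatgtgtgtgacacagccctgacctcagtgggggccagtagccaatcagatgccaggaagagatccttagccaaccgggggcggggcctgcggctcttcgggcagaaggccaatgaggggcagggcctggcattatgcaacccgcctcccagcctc

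F3 held AP-1 letters beginning 146 and 135 bases before its start site, 4 bases apart, and its strongest 6 h summit lay 34 bases after the start. F2r held AP-1 letters 204 bases and RUNX letters 178 bases before the start, with the summit 47 bases after it. Zyx held AP-1 letters 121 bases before the start and had its summit 40 bases before it. Cxcr4 held the GR hexamer 185 bases before the start, and its summit lay 29 bases after it. The summit at Per1 lay 78 bases before the printed start site, in a stretch without any of the 3 motifs. Thus the summits at F3, F2r, Zyx and Cxcr4 did not lie on the marked letters, and the Per1 stretch had none to lie on.

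The GR signal at these promoters was moderately higher at 6 h. F3 had fold enrichments of 15.5 and 9.26 at 6 h, against 7.23 and 6.69 at 0 h, with M of 0.88. Cxcr4 had 11.8 and 8.46 at 6 h, against 6.25 and 7.51 at 0 h, with M of 0.64. F2r had 9.76 and 7.76 at 6 h, against 6.55 and 5.97 at 0 h, with M of 0.57. At each of the 3, both 6 h values lay above both 0 h values. Zyx had 15.5 and 9.66 at 6 h, against 8.76 and 8.46 at 0 h, and it had a second strengthened locus inside the gene. At Per1 the unscaled values overlapped between the times, with 15.8 and 9.51 at 6 h, against 6.52 and 11.4 at 0 h.

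Across the promoters, AP-1 letters were more frequent in windows that overlapped strengthened loci than in windows that overlapped the other shared loci. Letters were counted over the whole window, including any part of it that lay beyond the locus. Taking the nearest window of each locus, AP-1 letters were found in 11 of 92 windows at strengthened loci, or 12.0% (95% Wilson interval 6.81 to 20.2), against 3.96% of 3386 windows at other shared loci and 7.85% of all 32585 windows. The difference from the other shared loci had a 95% Newcombe interval of 2.80 to 16.2 percentage points, and the share at weakened loci was 4.44%. EGR letters (GCGNGGGCG), which EGR factors bind, were found in 20.7% at strengthened loci, against 12.0% at other shared loci, a difference of 8.66 points (1.56 to 18.1). YY1 letters (AAGATGGCG) were found in 0 of 92 windows, which allows a share of up to 4.01% by the Wilson interval, against 4.61% at other shared loci. The GR hexamer itself stood in 12.0% at strengthened loci, against 10.8% at other shared loci, a difference of 1.18 points (-4.08 to 9.43), and in 19.0% of all windows. GR hexamers facing each other across 3 bases, the full GR element, occurred in none of the 92 windows, in 1 window at other shared loci and in 3 of all windows. A pair with at most 2 mismatches occurred in 2.17%, against 0.97% at other shared loci.

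Other letters differed by amounts whose intervals included 0. RUNX letters stood in 15.2% of windows at strengthened loci, against 10.5% at other shared loci, and the GC box (GGGCGG), which overlaps the EGR letters, in 82.6% against 73.5%. The median GC content was 64.8% at strengthened loci, 63.7% at other shared loci and 53.0% over all windows. The intervals also included 0 for the CREB site TGACGTCA and for its core TGACG alone. The same was true of AAGGTCA, which the steroidogenic receptors Nr5a1 and Nr5a2 bind, and of the CCAAT box of the factor NF-Y. It was true of the ETS factor letters CCGGAAG, of the E-box CACGTG that Clock and Myc proteins bind, of the C/EBP letters TTGCNNAA and of the NRF1 site. In all, 16 patterns were searched on both strands and intervals were not adjusted for that number. They cover counting error only, and a match of letters is a description and not a bound site.

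On the chromosomes used, 14732 and 10587 peaks were called in the 6 h libraries, against 10115 and 9724 in the 0 h libraries. The weakest peak in each list had a -log10 p-value of 9.0 to 9.1. Read depth is unknown, and the median fold enrichment over shared loci was 9.73 and 6.88 at 6 h and 8.69 and 8.81 at 0 h. The 6 h library 1 thus had the longest list and the highest median, and library 2 the lowest median. The log2 values over shared loci correlated with r of 0.72 between the 6 h libraries, 0.74 between the 0 h libraries and 0.56 to 0.63 across times, as a description over loci that share libraries. The granulosa label was checked against 0 h H3K27ac peaks at the ends of marker genes. Of 10 granulosa markers, 8 had one, among them Fshr, Foxl2 and Amh, and Cyp19a1 and Nr5a2 had none. Cyp17a1 among 5 theca markers, Gdf9 among 5 oocyte markers, Cd68 and Fcer1g among 5 leukocyte markers and Cdh5 among 5 endothelial markers also had one, and the part of such cells in the results was not tested. No marker on these 5 lists had a strengthened locus within 50 kb, which over so few genes is close to the share of all protein-coding genes, 3.02%, and says nothing of cell identity.

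M over the 305 strengthened loci had a median of 0.73, a 1.66-fold higher scaled enrichment at 6 h, and reached 2.42, or 5.34-fold. Most were close to the limit, with 220 loci between 0.5 and 1, 57 between 1 and 1.5 and 28 at 1.5 or more. The median fold enrichment was 13.7 and 10.6 at 6 h, against 7.23 and 7.51 at 0 h. At the other shared loci it was 9.53 and 6.70 at 6 h, against 8.81 and 8.90 at 0 h. At 292 of the 305 loci both scaled 6 h values lay above both scaled 0 h values, and at 13 the times overlapped. That ordering held at 18.8% of all shared loci. These values chose the loci and carry no test. The number of strengthened loci depended on each library, being 486 without 6 h library 1, 472 without 6 h library 2, 483 without 0 h library 1 and 498 without 0 h library 2. Shared loci then numbered 5089, 6843, 5358 and 5407 in that order. Only 268, 248, 243 and 256 of the strengthened loci so chosen overlapped the 305, so membership also depended on the libraries.

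**Figure D1:**
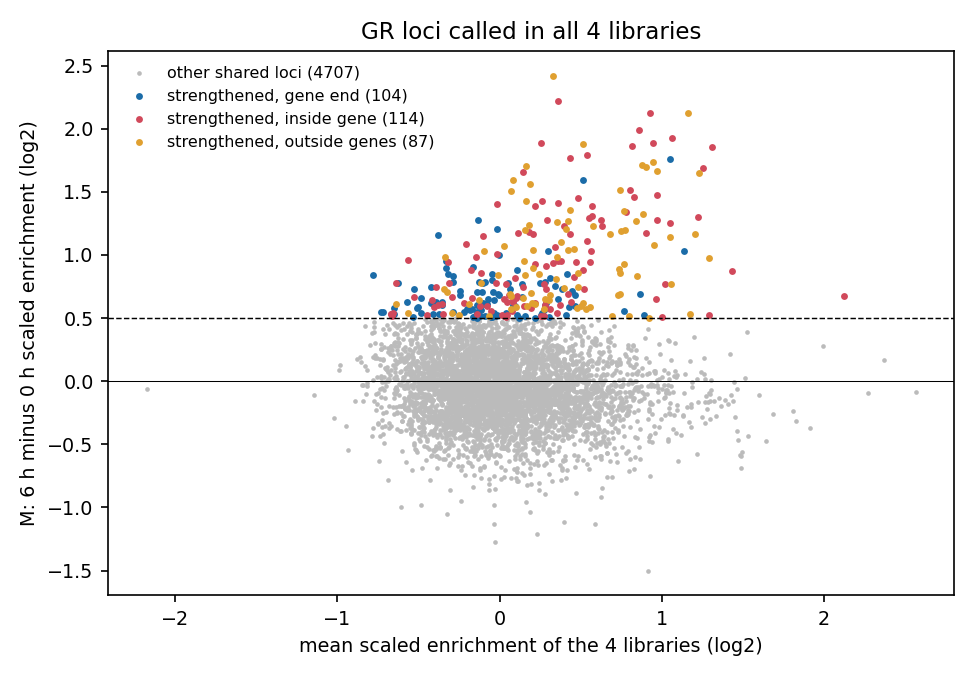
Each point is 1 of the 5012 shared GR loci. The x axis is the mean scaled enrichment of the 4 libraries (log2) and the y axis is M, the 6 h minus 0 h difference (log2), with the rule's limit of 0.5 dashed. The largest M values, up to 2.42, belong mainly to loci inside genes and outside genes, while most strengthened loci at gene ends (97 of 104) have M under 1.

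The strengthened loci were mid to low among shared loci before hCG and high after it. The ranks use the same values as M, so this shift follows from the rule and is only described. Their median percentile among shared loci was 88.8 at 6 h and 27.1 at 0 h. Loci outside genes stood at a median percentile of 95.2 at 6 h and 42.8 at 0 h, and loci at gene ends at 73.1 at 6 h and 15.3 at 0 h. The strongest summits lay a median of 24 bp apart between the 6 h libraries, 42 bp between the 0 h libraries and 41 bp between the times. The other shared loci had medians of 47 bp, 42 bp and 37.5 bp in the same order. At gene ends the strengthened loci had a larger gap between times, with a median of 80.25 bp, against 34.5 bp between the 6 h libraries and 58 bp between the 0 h libraries. All shared loci at gene ends had 38.25 bp between times. Outside genes the strengthened loci had 25.5 bp. The strengthened loci were 625 bp wide in the median, and the other shared loci 709 bp.

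The locus with the largest M lay outside genes, 69804 bp from Lacc1, which encodes an enzyme of purine metabolism studied in macrophages. It had fold enrichments of 25.6 and 22.0 at 6 h, against 4.18 and 5.39 at 0 h, and M of 2.42 with a standard error (SE) of 0.22 from the spread between libraries. A locus inside Ephx2, the soluble epoxide hydrolase that breaks down lipid epoxides, had 25.1 and 20.5 at 6 h, against 4.38 and 6.18 at 0 h, and M of 2.22 ± 0.26 (SE, n = 2 libraries per time). At a locus 4590 bp outside Wee1, a kinase that holds back entry into mitosis, the values were 38.4 and 38.1 at 6 h, against 8.56 and 10.3 at 0 h, with M of 2.12 ± 0.27. At all 3 loci the times were far apart, and the Lacc1 and Ephx2 loci were among the weaker shared loci at 0 h. A locus inside Foxp1, a forkhead transcription factor, had 31.3 and 33.7 at 6 h, against 8.97 and 7.10 at 0 h, with M of 2.12 ± 0.35. These 4 loci were the ones with M of 2 or more.

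**Figure D2:**
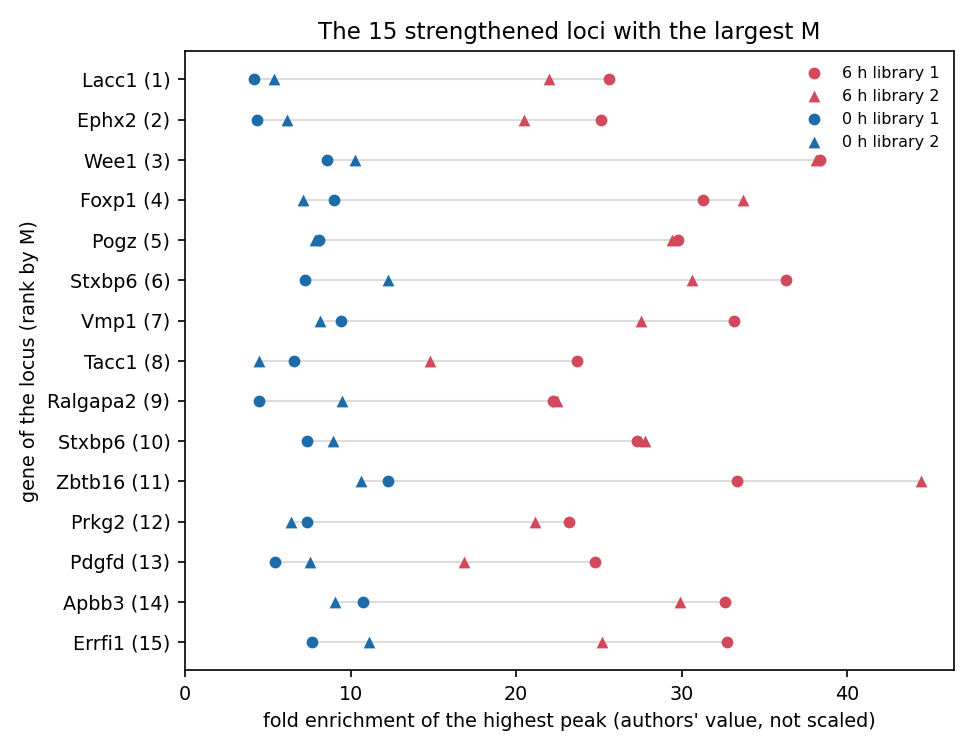
Fold enrichment in each of the 4 GR libraries, as the authors deposited it and not scaled, at the 15 strengthened loci with the largest M, from Lacc1 (2.42) at the top to Errfi1 (1.74) at the bottom. Red marks 6 h, blue marks 0 h, circles are libraries 1 and triangles libraries 2. The times do not overlap at any of the 15 loci.

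The next loci by M were again mostly distal. A locus inside Pogz, a zinc finger chromatin protein, had M of 1.99 ± 0.24, and loci inside Stxbp6, which binds the machinery of vesicle release, had 1.92 ± 0.39 and 1.86 ± 0.29. A locus inside Vmp1, a membrane protein needed for autophagy, had fold enrichments of 33.2 and 27.6 at 6 h, against 9.43 and 8.15 at 0 h, with M of 1.88 ± 0.16. It lay 2189 bp from the hairpin of Mir21a, a microRNA that LH is known to raise in mouse granulosa cells. A locus inside Tacc1, a coiled-coil protein of the spindle, had 23.7 and 14.8 at 6 h, against 6.61 and 4.46 at 0 h. A locus outside genes, 77328 bp from Ralgapa2, which belongs to a complex that switches off Ral GTPases, had 22.2 and 22.5 at 6 h, against 4.49 and 9.48 at 0 h, and its SE of 0.59 was the largest of the 15. A locus inside Prkg2, a kinase activated by cyclic GMP, had M of 1.79 ± 0.21, and a locus inside Pdgfd, a growth factor, had 1.77 ± 0.23. Apbb3, on chromosome 18, was the only 1 of the 15 loci at a gene end, with 32.6 and 29.9 at 6 h, against 10.8 and 9.06 at 0 h. The locus nearest to Errfi1, a feedback inhibitor of the EGF receptor, lay 77125 bp from the gene and had 32.7 and 25.2 at 6 h, against 7.65 and 11.1 at 0 h.

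Among the strengthened loci, the highest mean 6 h enrichments were in Zbtb16, a zinc finger repressor strongly induced by glucocorticoids. A locus inside the gene had 48.3 and 41.9 at 6 h, against 29.5 and 30.9 at 0 h, and M of 0.67 ± 0.15. A second locus, under 1 kb away on the genome, had 33.4 and 44.5 at 6 h, against 12.2 and 10.6 at 0 h, and M of 1.85 ± 0.47. The pair sat at chr9:48736142-48737980 and differed at 0 h more than at 6 h. A locus inside Agfg2 had 37.8 and 32.4 at 6 h, against 11.0 and 12.4 at 0 h. A locus 164838 bp from Pkdcc, a secreted tyrosine kinase, had 36.2 and 31.9 at 6 h, against 10.2 and 13.1 at 0 h. Inside Adamts9, a protease that cleaves the matrix proteoglycan versican, the values were 33.3 and 26.9 at 6 h, against 14.2 and 12.0 at 0 h. All these loci overlapped H3K27ac peaks of the 0 h library, as did all 28 loci with M of 1.5 or more.

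The strengthened loci lay far less often at gene ends than the other shared loci. A locus counts as at a gene end where the start or the end of a protein-coding gene is at most 1 kb away. Of the 305 strengthened loci 104 lay there, or 34.1% (29.0 to 39.6), against 79.4% of the other shared loci, a difference of -45.3 percentage points (-50.5 to -39.7). Inside genes lay 114, or 37.4%, against 14.0%, and outside genes 87, or 28.5%, against 6.59%. Both of these classes are called distal, and they are not free of promoters. Within 1 kb of a start site of the promoter table lay 16 strengthened loci inside genes and 12 outside genes. The printed Per1 locus is among those inside genes. The weakened loci differed from the stable loci in the same direction but by less, with 71.0% at gene ends (65.0 to 76.3), against 79.8%. The strengthened loci stood 36.9 points lower than the weakened ones (-44.2 to -28.8). The median distance of a strengthened locus to a gene end was 4711 bp. Without 6 h library 2 the share at gene ends was 57.4%, against 77.8% of the other loci, and without any other library it was 40.8% to 44.9%. Loci are not replicates, and these intervals cover counting error only.

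**Figure D3:**
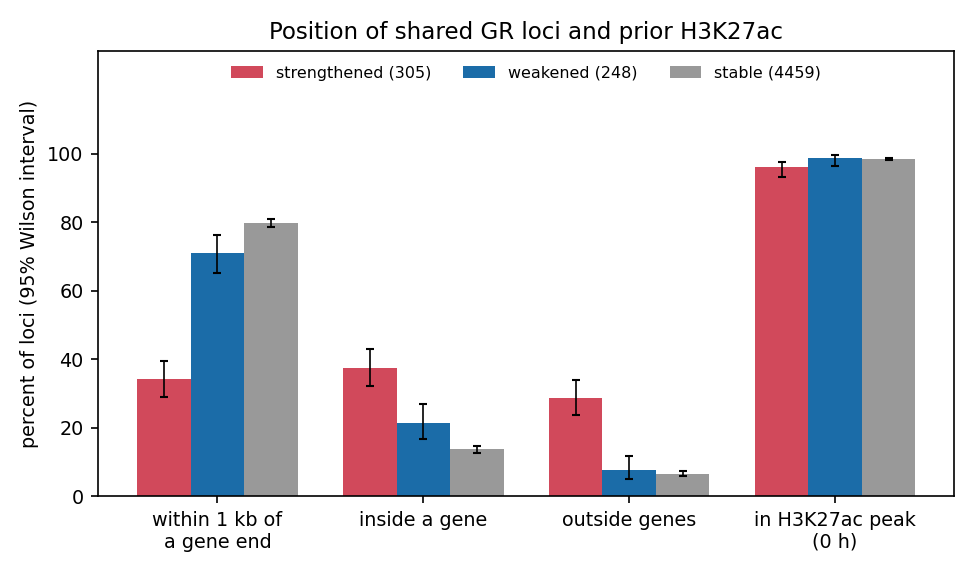
Percent of strengthened (red), weakened (blue) and stable (grey) shared loci within 1 kb of a gene end, inside a gene, outside genes, and overlapping a 0 h H3K27ac peak. Error bars are 95% Wilson intervals. The strengthened loci stand at 34.1% at gene ends, against 71.0% of weakened and 79.8% of stable loci, and all 3 classes exceed 96% for H3K27ac.

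Seen the other way round, 21.9% of shared loci outside genes (18.1 to 26.2) and 14.7% of those inside genes were strengthened, against 2.71% of those at gene ends (2.24 to 3.27). The share that was weakened was 4.79% outside genes, 6.84% inside genes and 4.58% at gene ends. The distal share also grew with the size of M. Gene ends held 44.1% of loci with M from 0.5 to 1 (37.7 to 50.7), 8.77% of those from 1 to 1.5 (3.81 to 18.9) and 7.14% of those at 1.5 or more (1.98 to 22.6). The median M was 0.62 for strengthened loci at gene ends, 0.82 inside genes and 0.86 outside genes. The 3 largest values at gene ends were those of Apbb3, with M of 1.76, Mrap and Usp28. Mrap, an accessory protein of the ACTH receptor, had 20.7 and 19.9 at 6 h, against 5.85 and 8.81 at 0 h, and M of 1.60. Usp28, a deubiquitinase, had 13.3 and 10.1 at 6 h, against 5.58 and 4.70 at 0 h, and M of 1.27 ± 0.14.

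Loci chosen in a pair of libraries kept a higher 6 h signal in the other pair more often at distal positions than at gene ends. Distal shared loci as a whole also reached 0.5 more often than gene-end ones, and every locus had a peak in all 4 libraries. The same 4 libraries set M, so these values are a description and not independent evidence for the strengthened loci. With loci chosen by a difference of 0.5 or more between the libraries numbered 1, the median difference in the libraries numbered 2 was 0.31 over 481 loci, and 39.3% again reached 0.5, against 10.9% of all shared loci. With the choice made on libraries 2 and the reading in libraries 1, the median was 0.26 over 545 loci, and 34.7% reached 0.5, against 9.60% of all shared loci. Distal loci chosen on libraries 1 had a median of 0.69 in libraries 2, and 62.2% of 225 reached 0.5, against 21.9% of all distal shared loci. Gene-end loci chosen the same way had a median of 0.07, and 19.1% of 256 reached 0.5, against 7.50% of all gene-end shared loci. The reverse choice gave a median of 0.56 and 54.5% of 257 at distal loci, against 19.2% of all distal shared loci. At gene ends it gave a median of 0.06 and 17.0% of 288, against 6.67% of all gene-end shared loci. In both directions the median of the gene-end loci thus lay close to 0 in the libraries that had not chosen them, and that of the distal loci above 0.5. Over all gene-end shared loci the medians were -0.07 in libraries 2 and -0.04 in libraries 1. Over all distal shared loci they were 0.08 and 0.05 in the same order. Of the 5012 shared loci, 189 reached 0.5 in both same-numbered pairs. M is the mean of these differences, so all 189 are among the 305 by the rule.

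The labels do not say whether same-numbered libraries belong together, and the crossed pairings gave similar values. Choosing on 6 h library 1 and 0 h library 2, 35.8% of 475 loci reached 0.5 in the remaining pair, against 11.3% of all shared loci. Choosing on 6 h library 2 and 0 h library 1, 30.1% of 565 did, against 9.48% of all shared loci.

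**Figure D4:**
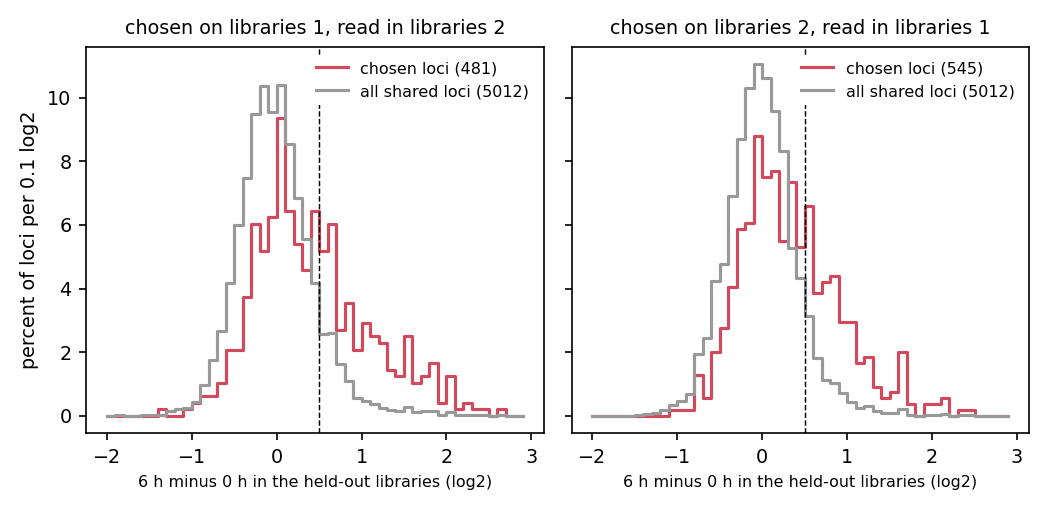
Histograms of the 6 h minus 0 h difference (log2, scaled) in libraries that did not choose the loci, as percent of loci per 0.1 log2. Red lines are loci chosen in the other pair of libraries (481 left, 545 right), grey lines all 5012 shared loci, and the dashed line is 0.5. The red lines have a long tail beyond 0.5, which 39.3% (left) and 34.7% (right) of the chosen loci pass.

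Nearly all strengthened loci lay in chromatin that already carried H3K27ac at 0 h. An H3K27ac peak overlapped 293 of 305, or 96.1% (93.2 to 97.7), against 98.6% of the other shared loci, a difference of -2.51 points (-5.34 to -0.80). Within location classes the intervals of the difference included 0. At gene ends the share was 99.0%, against 99.1% of the other shared loci, and at distal loci it was 94.5%, against 96.5%. At least 50% of the locus was covered in 90.2% of strengthened loci and in 96.6% of the others. The overlapping H3K27ac peak had a median width of 1758 bp at strengthened loci, against 1487 bp at other shared loci. This order did not hold at gene ends, where it was 1355 bp at strengthened loci, against 1435 bp at all shared loci. Inside genes it was 2288 bp, against 1772.5 bp. With no H3K27ac library at 6 h, a change of the mark could not be measured. Among the 12 strengthened loci without the mark, the largest M was 1.27, at a locus outside genes 29621 bp from Fam110b, and another was 152599 bp from Cxcl12, the ligand of Cxcr4.

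The strengthened loci also had GR loci called only at 6 h in their neighbourhood more often. Those calls come from the same 4 peak lists as M, so this is a description and not independent evidence. A locus of that class lay within 50 kb of 142 strengthened loci, or 46.6%, against 23.4% of other shared loci and 17.7% of weakened loci. The difference from the other shared loci was 18.4 points among distal loci (10.8 to 25.8) and 14.9 points among gene-end loci (6.30 to 24.6). The share was 40.0% for M from 0.5 to 1 and 67.9% for M of 1.5 or more. Another strengthened locus lay within 50 kb of 44 strengthened loci, or 14.4%, against 3.55% of other shared loci. These 44 formed 20 groups, of which 4 had 3 loci. The groups of 3 were at Pogz, between Pawr and Syt1, at Nfx1, and at Fosl2, an AP-1 subunit. Counted within 50 kb of the gene span, Chmp5, Cradd, Fosl2, Nfx1 and Pogz had 3 strengthened loci each. By chromosome, the strengthened loci ran between 5 of 185 shared loci on chromosome 19 and 27 of 269 on chromosome 10.

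Genes known to respond to glucocorticoids were the list with the most strengthened loci. The lists were written with earlier results of these data known, so their order is a description and not independent evidence. A strengthened locus lay within 50 kb of 11 of 24 genes on this list, or 45.8%, against 3.02% of all protein-coding genes. Of the genes that had any shared locus in that window, it was 55.0% of 20 list genes, against 6.56% of 9950 genes. Without 6 h library 1, 6 h library 2, 0 h library 1 and 0 h library 2 the number was 12, 8, 8 and 11 in that order, and with a window of 10 kb it was 7.

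**Figure D5:**
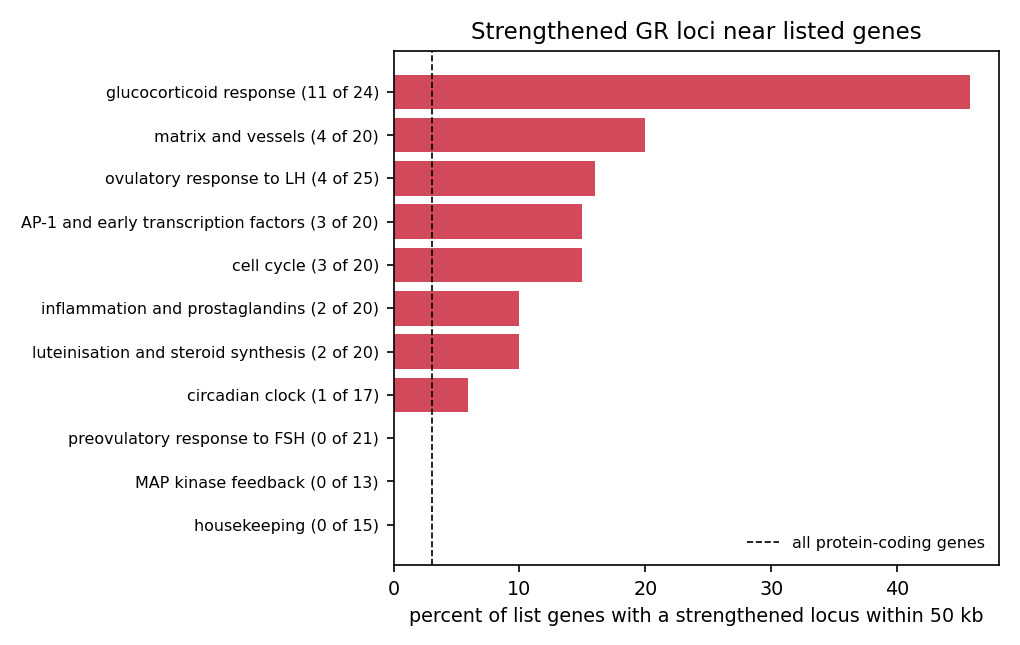
Percent of the genes on each of 11 lists that had a strengthened locus within 50 kb, with the number of genes beside each name. The dashed line is the 3.02% of all protein-coding genes. The glucocorticoid response list stands highest at 45.8%, and the FSH, MAP kinase feedback and housekeeping lists are at 0. The lists were written with earlier results of these data known.

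Feedback inhibitors stood among these 11 genes. Nfkbia, which encodes the inhibitor of NF-kB, had 31.7 and 20.8 at its gene end at 6 h, against 13.9 and 13.0 at 0 h, and M of 1.03 ± 0.08. Fkbp5, a co-chaperone that lowers the hormone affinity of GR, had a locus 29515 bp from the gene with 21.9 and 20.5 at 6 h, against 8.08 and 12.1 at 0 h. A further locus at 36326 bp had 27.2 and 18.2 at 6 h, against 13.6 and 14.4 at 0 h. At all 3 loci the 6 h values lay above the 0 h values. Klf9, a Krueppel-like repressor, had a locus 4979 bp away with 18.7 and 13.2 at 6 h, against 7.32 and 9.17 at 0 h, and M of 1.04 ± 0.15. Cdkn1a, the p21 inhibitor of the cell cycle, had 11.4 and 10.3 at 6 h, against 7.07 and 7.77 at 0 h. Ddit4, which restrains the growth kinase mTOR, lay 22245 bp from a locus with 23.0 and 14.9 at 6 h, against 13.3 and 14.6 at 0 h, where M was 0.50 and only just inside the limit. The raw values of 6 h library 2 and 0 h library 2 were close there, and the scaled values were apart.

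The other genes of the list had smaller or more variable differences. Sgk1, a kinase of ion transport and cell survival, had 11.5 and 12.1 at 6 h, against 7.33 and 10.7 at 0 h. Tgfbr3, the betaglycan co-receptor for inhibin and TGF-beta, had 12.9 and 12.1 at 6 h, against 5.99 and 12.2 at 0 h, and its M of 0.64 had an SE of 0.55. The spread there came mainly from the 0 h libraries. Mt1 and Mt2, the metallothioneins that bind zinc and copper, shared a locus at Nup93, more than 30 kb away, with 6.82 and 7.82 at 6 h, against 4.88 and 4.56 at 0 h. Zbtb16 and Per1, described above, complete the 11.

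On the list of the ovulatory response to LH, 4 of 25 genes had a strengthened locus, or 16.0%, against 3.02% of all protein-coding genes. Vcan, the proteoglycan versican of the expanding cumulus matrix, had 24.9 and 22.8 at a locus 17126 bp outside the gene at 6 h, against 8.64 and 12.0 at 0 h, and M of 1.32 ± 0.30. At its gene end it had 15.7 and 8.83 at 6 h, against 7.83 and 6.98 at 0 h. Zfp36, which speeds the decay of inflammatory messenger RNAs, had 14.1 and 14.6 at 6 h, against 7.19 and 7.90 at 0 h, and M of 1.03 ± 0.28. The values at these 3 loci did not overlap between times. Edn2, the endothelin of follicle contraction, and Snap25, of vesicle release, had loci 12164 and 34091 bp away with M of 0.62 and 0.61. On the list of matrix and vessels 4 of 20 genes, or 20%, had a strengthened locus, namely Adamts9, the vessel ligands Efnb2 and Angpt2, and Col4a2, a basement membrane collagen, with M of 0.53 to 1.30. The Angpt2 locus lay inside another gene, Mcph1, 2104 bp from Angpt2. The Col4a2 locus lay at a gene end of Naxd, 48108 bp from Col4a2. Among genes with any shared locus in the window, the share with a strengthened locus was 33.3% on each of these lists, against 6.56% of all such genes. The matrix count was 2 without 0 h library 1, and the ovulatory count was 2 with a window of 10 kb.

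Among AP-1 and early transcription factors 3 of 20 genes, or 15%, had a strengthened locus, against 3.02% of all protein-coding genes, and the count was 6 without 6 h library 2 and 7 without 0 h library 2. Fosl2 had 3 such loci, 1 of them at its gene end with 17.9 and 12.0 at 6 h, against 9.11 and 8.30 at 0 h, and M of 0.85 ± 0.09. Mafk, a small Maf protein, had 12.1 and 6.78 at 6 h, against 5.65 and 4.44 at 0 h. Atf3 had 15.7 and 10.8 at 6 h, against 8.25 and 11.4 at 0 h, so its raw values overlapped between times. On the cell cycle list it was 3 of 20, namely Cdkn1a, Aurkb, which shares the loci of Per1, and Ccne1, cyclin E1, whose M was 0.85. On the list of inflammation and prostaglandins it was 2 of 20, Cxcr4 and Nfkbia, and 1 without 0 h library 1. On that of luteinisation and steroid synthesis it was 2 of 20, Hsd17b7, with M of 0.51, and Prlr, the prolactin receptor, with a locus 26253 bp away and M of 0.60. That count was 4 without 0 h library 2 and 1 with a window of 10 kb. Among 17 circadian clock genes it was 1, Per1, but 2 with any of the 4 libraries left out and 3 with a window of 100 kb.

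No strengthened locus lay within 50 kb of the 21 genes of the preovulatory FSH response, of which 16 had a shared locus and 5 a weakened one. Of all 21631 protein-coding genes, 9950 had a shared locus and 815 a weakened one. The number of FSH list genes with a strengthened locus was 2 without 6 h library 1, 0 without 6 h library 2, 1 without 0 h library 1 and 3 without 0 h library 2. None lay near the 13 genes of MAP kinase feedback or the 15 housekeeping genes, where a shared locus was present at 9 and 13 genes. The MAP kinase feedback count was 1 without 6 h library 1, 2 without 0 h library 2 and 1 with a window of 100 kb. The housekeeping count was 1 without 6 h library 2, 1 without 0 h library 1, 2 without 0 h library 2 and 2 with a window of 100 kb. These counts stand beside the 3.02% of all protein-coding genes, a level at which lists this short differ little from 0.

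The loci on either side of the limit were alike. Just inside it lay loci at Hsd17b7, Anxa2, Nfx1, Anapc16 and Tigd2, with M of 0.50 to 0.51. Just outside it lay loci at Ccdc142, Bad, Calm2, Nub1 and Tiparp, with M of 0.49 to 0.50. Hsd17b7 had 11.6 and 7.67 at 6 h, against 6.40 and 7.93 at 0 h, and Ccdc142 had 11.3 and 10.3 at 6 h, against 7.10 and 9.45 at 0 h. Of these 10 loci, 9 lay at gene ends.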

How the data were processed

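GR and H3K27ac ChIP-seq peak lists were used, 1 per library, so peaks were called per sample. Per the submitters' processing notes, Bowtie2 2.4.5 aligned the reads to mm10 and MACS2 called the peaks. For MACS2, the version was not given in the sources used here. The deposited GR lists give a score, a fold enrichment, a −log10 p-value and −log10 q-value and a summit per peak, which are the authors' values. Fold enrichment and the −log10 p-value, both deposited, depend on depth, which is unknown. The H3K27ac list gives positions only. No columns of other samples were present.

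Loci, M and the limit of 0.5 are defined in the report. Since M chose the loci, no p-value was computed. Shares have 95% Wilson intervals, and differences 95% Newcombe intervals (scipy 1.17.1, statsmodels 0.14.6). Gene spans of 21631 protein-coding genes came from RefSeq GRCm38.p6. The start sites in the promoter table cover only part of these genes and no chromosome 18, so both gene ends were used and start sites were an alternative. The loci and the 11 gene lists (205 genes, all found) were chosen with earlier results of these data known. Named are the 15 loci with the largest M, the 10 with the highest mean 6 h enrichment, up to 4 genes per list (nearest first), 5 loci on each side of the limit and genes with 3 or more loci within 50 kb. Further list genes, F3, F2r, Zyx, Mrap, Usp28, Fam110b, Cxcl12, Pawr, Syt1 and Mir21a were chosen after their values were seen. The merging and the rule were tested on simulated data. Alternatives covered scaling, signal measure, limits, merging, windows and left-out libraries.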

Additional observations from a re-analysis of the deposited data

How the results depend on the processing

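Under every setting tried for scaling, signal, limit, distance or libraries, the share of strengthened loci at gene ends stayed below that of the other loci. The number of strengthened loci was 620 with the −log10 p-value in place of fold enrichment, 85 with M of 1 or more, and 472 to 498 with 1 library left out. Their share at gene ends was 27.5% without division by the library median (which put the median M of all shared loci at -0.14), 48.2% with M centred within each location class, 49.0% with the −log10 p-value, 8.24% with M of 1 or more, 51.1% within 5 kb of a gene end, and 40.8% to 57.4% with 1 library left out. Start sites of the promoter table, an alternative chosen after seeing the data, gave 35.8%, against 77.4% of other loci. Overlap with H3K27ac was 98.8% with M of 1 or more, against 98.4% of the remaining shared loci. The lower share of strengthened loci thus did not hold at that limit. With at least 50% of the locus covered the share was 90.2%, against 96.6% of the other shared loci. With 1 library left out it was 94.0% to 96.8%, each time below the share of the other loci. The strongest 6 h summit lay in an H3K27ac peak at 84.9% of strengthened loci, and this was not computed for other loci. List genes with a strengthened locus numbered 27, and 24 to 40 with 1 library left out.

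Deviations of same-numbered libraries correlated with r of 0.028 over shared loci, so these values showed no pairing by number. The labels do not say whether same-numbered libraries belong together, and the correlation cannot decide it. Treating the number as a replicate block, that is requiring 0.5 in both pairs, gave 189 loci, 25.9% of them at gene ends. The median held-out difference was 0.28 in same-numbered and 0.24 in cross-numbered libraries. The unknown depth, 2 libraries per time and the absence of a 6 h H3K27ac library limit these results. The cause of the differences between settings was not tested.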
